A study of Mus musculus with 2 samples.

Results

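The proteases, their inhibitors and the factors and receptors of coagulation were examined in mouse morulae in which leukemia inhibitory factor (LIF) had been targeted by small interfering RNA (siRNA). Spots were chosen by the start of the gene name in the array files (cathepsin, cystatin, serine protease, a disintegrin, matrix metalloproteinase, calpain, coagulation factor and similar names, 27 starts in all), and the rule uses no measured value. This gave 106 of the 8735 gene spots, with 98 different names. Embryos of the B6CBF1 strain were injected at the 2PN stage with LIF-siRNA or with scrambled siRNA (1 pl and 1.0 fmol in the sample labels, a dose for which the methods give another value) and were 4 d old at collection as whole embryos. On each array the Cy5 channel held RNA pooled from 20 morulae given LIF-siRNA, the Cy3 channel held RNA of morulae given scrambled siRNA, and the spots were cDNAs of cloned mouse transcripts. The 2 arrays had the same dye order, so the effect of the dye and that of LIF-siRNA cannot be told apart. The labels call the arrays biological replicates in a description that also names untreated stem cells, and separate pools are not stated, so the p-values below measure only the spread between these samples, which may be technical. An injected embryo with fewer cells of a type and one with less RNA per cell cannot be told apart in pooled RNA.

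Proteases cut proteins and are named after the group in their active site. Cathepsins and calpains are mostly cysteine proteases that act in lysosomes and in the cytosol, matrix metalloproteinases and ADAM proteases are zinc enzymes that act on matrix and on cell-surface proteins, and trypsin-like serine proteases include plasmin, the kallikreins and the coagulation factors. Each class has its inhibitors: many cystatins block cathepsins, calpastatin blocks calpains, and tissue inhibitors of metalloproteinases (TIMPs) block metalloproteinases. Serpins, Kunitz and Kazal proteins block serine proteases. Around implantation, proteases of the trophoblast and their inhibitors set how far the embryo opens the zona pellucida and the uterine matrix.

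Each array gave a processed signal (background-subtracted and dye-normalized brightness, in arbitrary units) per channel and a log2 ratio of LIF-siRNA over scrambled siRNA. The median signal over local background was between 4.83 and 6.60 for both channels of both arrays, 664 blank spots had a 95th percentile of processed signal between 22.5 and 67.9, and 0 gene spots were saturated. All 6 spots of the embryo marker list were well above background, with mean log2 ratios of -2.35 for Sox2, -1.95 for keratin 8, -0.11 for Oct4, 0.04 for keratin 19, 0.14 for eomesodermin and 0.47 for cadherin 1, and their part in the ratios below was not tested. Of the markers of blood and leukocytes 4 of 6 and 4 of 10 were well above background in both channels on both arrays. Of the 6 blood spots, 1 was higher and 3 lower on both arrays, and mean log2 ratios ran from -1.29 to 0.76. Their summed signal was 4277 and 3780 in the control channel and 1936 and 1791 after LIF-siRNA, of which hemoglobin X alone, the spot at -1.29, gave 3979 and 3439 and then 1610 and 1421. The summed signal of the leukocyte list was 1128 and 1159 against 1178 and 1583 with 6 of 10 spots higher and 1 lower on both arrays, and the part of either list in the ratios of clotting factors and of leukocyte proteases such as MMP12 was not tested. No spot was found by the name of LIF, so the targeted transcript was not measured. Of the 106 spots, 95 stood well above background on each array in Cy3, Cy5 or both and were tested, 84 did so in all 4 measurements, and 0 carried an outlier mark. The 11 that were not tested were ADAM22, cathepsin S, coagulation factors IX and X, granzyme B, kallikrein binding protein, mast cell proteases 4 and 6, matrix metalloproteinase 7, neurotrypsin and serine protease inhibitor 1-3, and no level is given for them. The signal, taken as the mean over the arrays in either channel, was above 1000 for 21 spots.

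The study's limits are ratios of 2 and 0.5, with more than 1000 units of signal in either channel. How the arrays were combined is not stated, and the limits were applied here to the mean log2 ratio and the mean signal of both arrays. The 4 members past these criteria were all classed as inhibitors by name, and their inhibitory activity was not measured. Cystatin 9, calpastatin and serpin clade E member 2 were higher after LIF-siRNA, and serine protease inhibitor Kunitz type 1 was lower. Of the 21 members past the signal threshold, 8 were classed as inhibitors. Above the upper ratio were 3 of the 21, against 5.33% of the 3527 probes of the array past that threshold. There was 1 of 21 below the lower ratio, against 5.42% of the same probes. Over the 95 members tested, 45 were higher on both arrays, against 36.7% of all probes, and 23 were lower on both, against 36.8%, and the counts by family below are to be read against these shares. The criteria involve no statistical test. With limma, no member had a Benjamini-Hochberg adjusted p under 0.05, as for 0% of the 8079 probes tested. The smallest adjusted p of a member was 0.058, shared by cystatin 9, coagulation factor II and kallikrein 26. Of these, only kallikrein 26 had a control channel not well above background. Before adjustment, 29 of the 95 members were higher at p under 0.05, against 15.9% of all probes, and 13 were lower, against 14.8%. These counts and those on both arrays include 11 tested spots not well above background in all 4 measurements. Of these, 3 passed through the LIF-siRNA channel alone on both arrays, and all others but a TIMP3 spot did so on a single array. Such a filter favours higher ratios. Of the other 84, 25 were higher at p under 0.05 (14.9% of such probes) and 13 lower (14.8%), and 40 were higher (36.4%) and 22 lower (37.3%) on both arrays. By the methods' t-test, 7 of the 95 members (7.37%) and 10.7% of all probes were under 0.05 before adjustment, and 0 members were after it. The limma count depended on the filter, the normalization and the variance model, and ranged from 0 to 27 members over the alternatives, and where it was 27 (28.4% of the members) 20.9% of all probes were called too.

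The promoters of the 4 genes are shown because LIF signals through STAT3, whose dimer binds the palindrome TTCNNNGAA. Symbols were assigned to the file's gene names by hand, and the sequences are those of RefSeq on GRCm38.p6, from 250 bases before to 50 bases after the start of transcription, 5′ to 3′ on the gene's strand, with a match in capitals. Calpastatin (Cast) has 4 such windows on chromosome 13, of which the window with a match is shown.
Cst9 (cystatin 9, chr2:148834897-148835196, plus strand): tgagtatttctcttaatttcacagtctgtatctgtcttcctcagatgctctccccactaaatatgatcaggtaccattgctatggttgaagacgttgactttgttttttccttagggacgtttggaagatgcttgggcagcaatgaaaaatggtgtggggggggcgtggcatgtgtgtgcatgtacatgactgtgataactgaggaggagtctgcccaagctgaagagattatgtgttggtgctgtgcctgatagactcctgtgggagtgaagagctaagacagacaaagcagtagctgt
Serpine2 (serpin clade E member 2, chr1:79858616-79858915, minus strand): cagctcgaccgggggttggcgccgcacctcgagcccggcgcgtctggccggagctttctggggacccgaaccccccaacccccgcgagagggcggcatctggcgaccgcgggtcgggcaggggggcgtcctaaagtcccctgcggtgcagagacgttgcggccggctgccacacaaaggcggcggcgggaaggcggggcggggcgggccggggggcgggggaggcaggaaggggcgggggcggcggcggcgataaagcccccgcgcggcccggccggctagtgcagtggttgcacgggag
Spint1 (Kunitz type 1, chr2:119237110-119237409, plus strand): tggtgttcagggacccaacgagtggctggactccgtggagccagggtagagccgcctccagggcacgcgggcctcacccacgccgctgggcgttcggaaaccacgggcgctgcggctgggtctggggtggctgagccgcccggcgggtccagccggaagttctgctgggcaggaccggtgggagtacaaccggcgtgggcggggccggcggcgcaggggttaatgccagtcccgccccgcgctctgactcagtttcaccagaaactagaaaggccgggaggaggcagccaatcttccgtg
Cast (calpastatin, chr13:74808711-74809010, minus strand): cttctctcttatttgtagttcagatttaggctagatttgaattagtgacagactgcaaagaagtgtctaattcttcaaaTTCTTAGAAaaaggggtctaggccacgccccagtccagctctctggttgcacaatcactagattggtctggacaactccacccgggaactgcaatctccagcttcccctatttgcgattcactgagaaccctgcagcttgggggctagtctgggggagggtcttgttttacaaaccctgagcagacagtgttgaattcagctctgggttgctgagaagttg
The motif was found in 1 of the 4 Cast windows, 171 bases before the start, and in 0 of the windows of Cst9, Serpine2 and Spint1, while 8.3% of the 32851 windows in the table hold it. It reads the same on both strands. A match is a description of the letters, and no match says only that these letters are not in this window. GC content was 46.0% for Cst9, 77.7% for Serpine2, 69.7% for Spint1 and 47.3% for the Cast window shown, beside a median of 52.7% for all windows.

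Cystatin 9, also called testatin and known from the fetal testis, had the highest ratio of the 95 members tested. Its signal was 173 and 606 in the scrambled siRNA channel of array 1 and array 2, and 2015 and 3255 in the LIF-siRNA channel. Both LIF-siRNA signals were above both control signals, as for 37 of the 95 members and 31.4% of all probes, while both were below for 18 members and 31.2% of all probes. The log2 ratio was 3.54 and 2.43, a mean of 2.98 ± 0.79 (SD, n = 2) or 7.91-fold, with an adjusted p of 0.058 in limma. Cystatin 9 and coagulation factor II are also on the list of up-expression genes that the study drew from these arrays, so that list is no independent evidence for them. Calpastatin and serpin clade E member 2 were not found on it.

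The other 3 cystatins had log2 ratios below 0 on both arrays. Cystatin C, the main secreted inhibitor of cathepsins, had signals of 2881 and 3000 in the control channel and of 1860 and 1508 after LIF-siRNA, a mean log2 ratio of -0.81 ± 0.25 (SD, n = 2, adjusted p = 0.101). Cystatin B, which acts inside the cell, had 6537 and 5612 in the control channel and 3705 and 4043 after LIF-siRNA, with a mean log2 ratio of -0.65 ± 0.24 (SD, n = 2, adjusted p = 0.135). For both genes both LIF-siRNA signals were below both control signals, as for 31.2% of all probes. Cystatin F, an inhibitor known from leukocytes, had 7572 and 8004 against 7206 and 8001, and its mean log2 ratio of -0.04 ± 0.05 (SD, n = 2) was within the spread of the arrays. The median over the 4 cystatins was -0.34, beside -0.004 over all probes tested. Cystatin C is the product of Cst3 and cystatin B is also called stefin B, and cystatin 8 was not found by name.

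**Figure D1:**
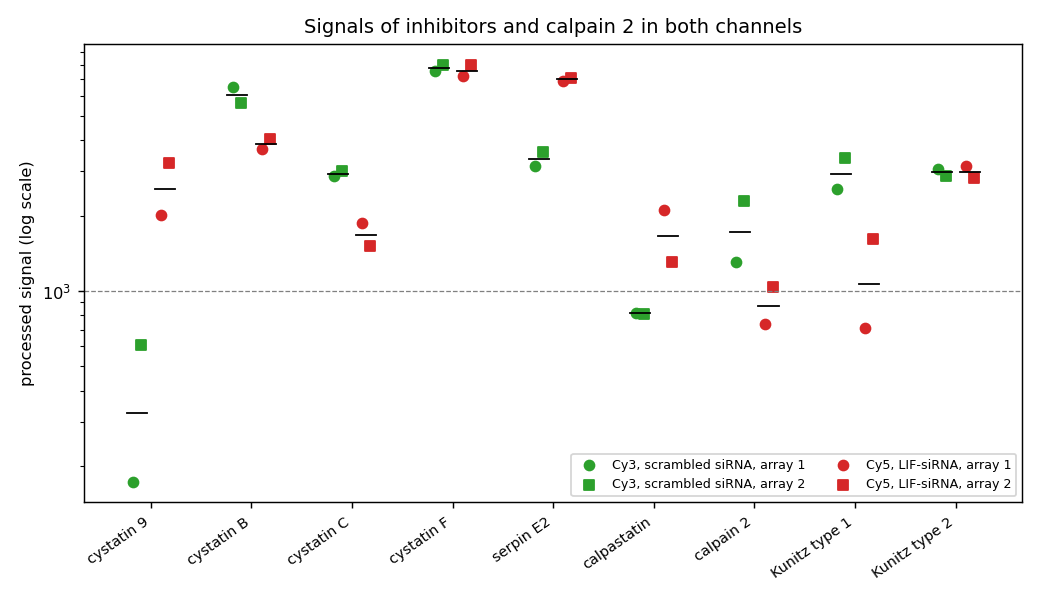
Processed signals (log axis, arbitrary units) of cystatins, other inhibitors and calpain 2 in the Cy3 channel (scrambled siRNA) and the Cy5 channel (LIF-siRNA), with circles for array 1, squares for array 2, short lines for the geometric mean and a dashed line at the signal threshold of 1000. Cystatin 9 lies between 173 and 606 in Cy3 and between 2015 and 3255 in Cy5, whereas the channels of cystatin F and Kunitz type 2 lie on each other.

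Serpin clade E member 2 (protease nexin-1), an inhibitor of thrombin, urokinase and plasmin, had signals of 3169 and 3588 in the control channel and 6919 and 7120 after LIF-siRNA. All 4 values were far above the signal threshold, and the LIF-siRNA values exceeded the control values on both arrays. Its log2 ratio was 1.13 and 0.99, a mean of 1.06 ± 0.10 (SD, n = 2) or 2.08-fold, with an adjusted p of 0.0725, so array 2 alone was just under the 2-fold limit. The gene is also active in granulosa cells, and the 3 cumulus or granulosa marker spots had summed signals of 393 and 292 in the control channel and 884 and 875 after LIF-siRNA, with inhibin beta-B at a mean log2 ratio of 1.80, pentaxin related gene at 1.17 and inhibin beta-C not well above background. Their part in its ratio was not tested.

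The Kunitz type 1 inhibitor (HAI-1), a membrane protein that blocks hepatocyte growth factor activator, matriptase and hepsin and is needed for the placental labyrinth, had signals of 2561 and 3384 in the control channel and 710 and 1607 after LIF-siRNA. Its log2 ratio was -1.85 and -1.07, a mean of -1.46 ± 0.55 (SD, n = 2) or 2.76-fold lower, with an adjusted p of 0.0678. It was past the lower limits with either array alone as well. Kunitz type 2 (HAI-2), its close relative, had 3083 and 2891 in the control channel and 3167 and 2817 after LIF-siRNA, a mean log2 ratio of 0.00 ± 0.05 (SD, n = 2). Hepsin, a serine protease outside the name rule, was also lower on both arrays, with signals of 815 and 1111 in the control channel and 366 and 487 after LIF-siRNA and a mean log2 ratio of -1.17 ± 0.03 (SD, n = 2, adjusted p = 0.064).

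Among the calpain family, calpastatin and calpain 2 had ratios on opposite sides of 0. Calpastatin, the endogenous inhibitor of calpains 1 and 2, had signals of 816 and 809 in the control channel and 2096 and 1309 after LIF-siRNA. Its log2 ratio was 1.36 and 0.69, a mean of 1.03 ± 0.47 (SD, n = 2, adjusted p = 0.0923), and it was just inside the ratio limit. With normexp background correction and loess the mean was 0.97, and calpastatin was no longer past the criteria. Calpain 2, the large subunit of m-calpain, had 1300 and 2292 in the control channel and 736 and 1037 after LIF-siRNA, a mean log2 ratio of -0.98 ± 0.23 (SD, n = 2, adjusted p = 0.0827), just outside the limit. The other 5 calpains had mean log2 ratios from 0.09 (calpain 10) to 1.32 (calpain 3, the muscle calpain), and 4 of these 5 were higher on both arrays. Calpain 3 had 152 and 100 in the control channel and 273 and 348 after LIF-siRNA (adjusted p = 0.0841). The family median was 0.87, and it was 0.50 on array 1 alone and 0.69 on array 2 alone.

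The cathepsins were split by gene. Cathepsin H, a lysosomal aminopeptidase, had signals of 1008 and 652 in the control channel and 433 and 335 after LIF-siRNA, a mean log2 ratio of -1.09 ± 0.18 (SD, n = 2, adjusted p = 0.0721), and its mean signal was below 1000. Cathepsin B, an abundant lysosomal protease, was dim (150 and 121 against 63 and 88) with a mean of -0.85 ± 0.55 (SD, n = 2). Cathepsin L, a lysosomal protease of many tissues, had 29292 and 19440 in the control channel and 16133 and 20731 after LIF-siRNA. Array 1 gave a log2 ratio of -0.86 and array 2 gave 0.09, so the arrays had no common direction.

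The other cathepsins tested were higher on both arrays. Cathepsin E, an aspartic protease, had 858 and 922 in the control channel and 1397 and 1590 after LIF-siRNA, a mean log2 ratio of 0.74 ± 0.06 (SD, n = 2, adjusted p = 0.103). The 3 spots of cathepsin F gave means of 0.14, 0.74 and 0.80, and the first belongs to another transcript cluster. Cathepsins J and M, which are known from the placenta and are close in sequence, had means of 0.70 and 0.92 at signals below 1000, and cross-hybridization between such relatives was not tested. Of 9 cathepsin spots tested, 6 were higher and 2 lower on both arrays (36.7% and 36.8% of all probes), and the family median was 0.70, or 0.40 with normexp and loess, 0.32 on array 1 alone and 0.34 on array 2 alone. Cathepsins C, D, K and Z and legumain were not found by name.

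**Figure D2:**
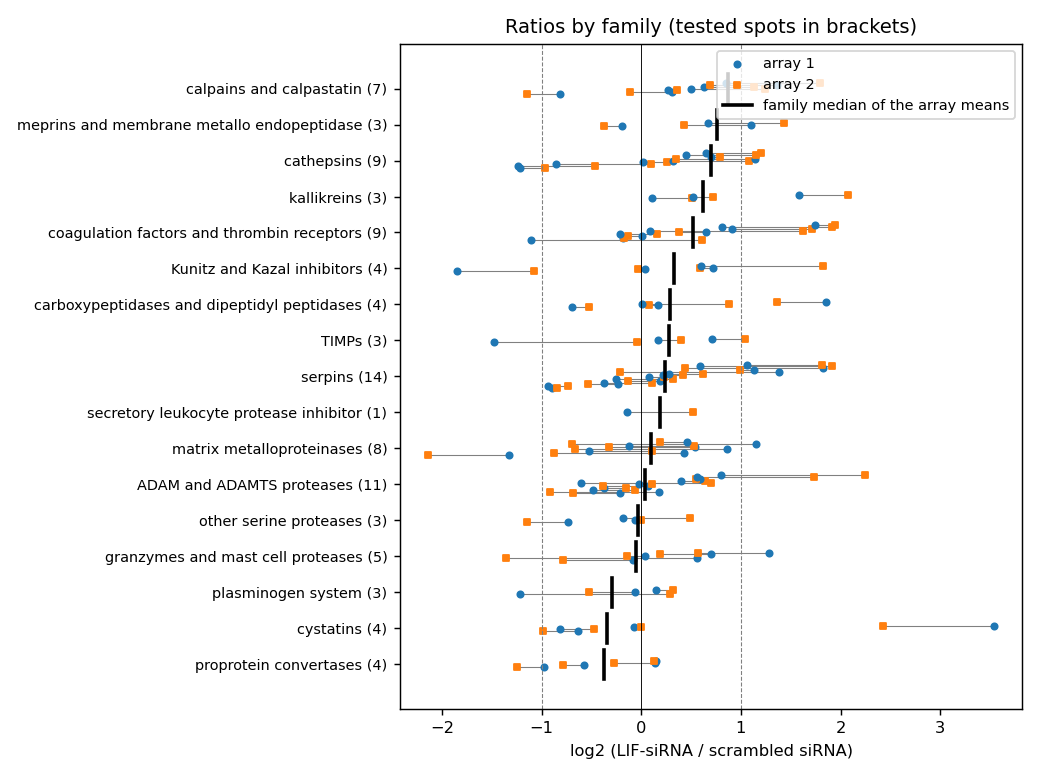
Log2 ratio of LIF-siRNA over scrambled siRNA on array 1 (circles) and array 2 (squares) for the 95 tested spots, grouped by family with the number of spots in brackets, a grey line joining the arrays of a spot, a black bar at the family median and dashed lines at 2-fold. Family medians run from -0.38 (proprotein convertases) to 0.87 (calpains and calpastatin), an order that moved with the setting. With normexp and loess the convertases had -0.10 and the cystatins -0.34. On array 1 alone these were -0.22 and -0.35, and the calpain median of 0.50 was below 0.665 for the meprin family. The cystatins hold both the highest ratio and 3 spots below 0.

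Of 9 coagulation factor and thrombin receptor spots tested, 5 were higher on both arrays, 1 was lower and 3 had opposite signs, and all but receptor-like 1 had mean signals below 1000. Coagulation factor II (prothrombin), the precursor of thrombin, had signals of 269 and 203 in the control channel and 904 and 777 after LIF-siRNA. Its log2 ratio was 1.75 and 1.94, a mean of 1.84 ± 0.14 (SD, n = 2) or 3.59-fold, with an adjusted p of 0.058. Its mean signal of 841 in the LIF-siRNA channel kept it below the signal threshold as that was applied here, to the mean processed signal, although the study lists it. Factor V, the cofactor that activates prothrombin together with factor X, had 265 and 171 against 462 and 645 and a mean of 1.36 ± 0.79 (SD, n = 2, adjusted p = 0.0895). The thrombin receptor, a G protein-coupled receptor that thrombin opens by cleavage, had 274 and 231 in the control channel and 515 and 757 after LIF-siRNA, a mean of 1.31 ± 0.57 (SD, n = 2, adjusted p = 0.077). In these 3 genes both LIF-siRNA signals were above both control signals, as for 31.4% of all probes.

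Tissue factor (coagulation factor III), which starts the cascade, had a mean log2 ratio of 0.52 ± 0.19 (SD, n = 2), and factor VIII, the cofactor of factor IX, had signals of 52.4 and 31.1 in the control channel and 55.6 and 95.8 after LIF-siRNA. Factor XII, which starts the contact pathway, had 95 and 37 against 44 and 56. For both factors the control channel was not well above background on array 2, and no ratio is given. Receptor-like 1, a receptor cleaved by trypsin-like proteases rather than thrombin, had 948 and 1237 against 834 and 1100 and a mean of -0.18 ± 0.01 (SD, n = 2), and receptor-like 2 and 3 had signals below 70. The family median was 0.52 and was 0.08 on array 1 alone and 0.61 on array 2 alone. It was 0.32 with normexp and loess and 0.91 for spots well above background in both channels. Of the spots tested outside the rule, the following belong to the clotting system. The endothelial protein C receptor had 504 and 586 against 2046 and 1456, a mean of 1.67 ± 0.50 (SD, n = 2, adjusted p = 0.0607), was past the criteria and is on the study's list too. Thrombomodulin, which turns thrombin toward protein C, had 370 and 270 against 553 and 771, a mean of 1.05 ± 0.66 (SD, n = 2, adjusted p = 0.103). Tissue factor pathway inhibitor had opposite signs on the arrays, -0.44 and 1.14.

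Because many clotting factors are made by the liver, liver markers are given beside them. Alpha fetoprotein had a mean log2 ratio of 1.95, transthyretin -0.09 and apolipoprotein A-I -1.32, and the summed signal of these 3 spots was 1376 and 1255 in the control channel and 659 and 826 after LIF-siRNA, so the list did not move in 1 direction. Their part in the ratios of the clotting factors was not tested.

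**Figure D3:**
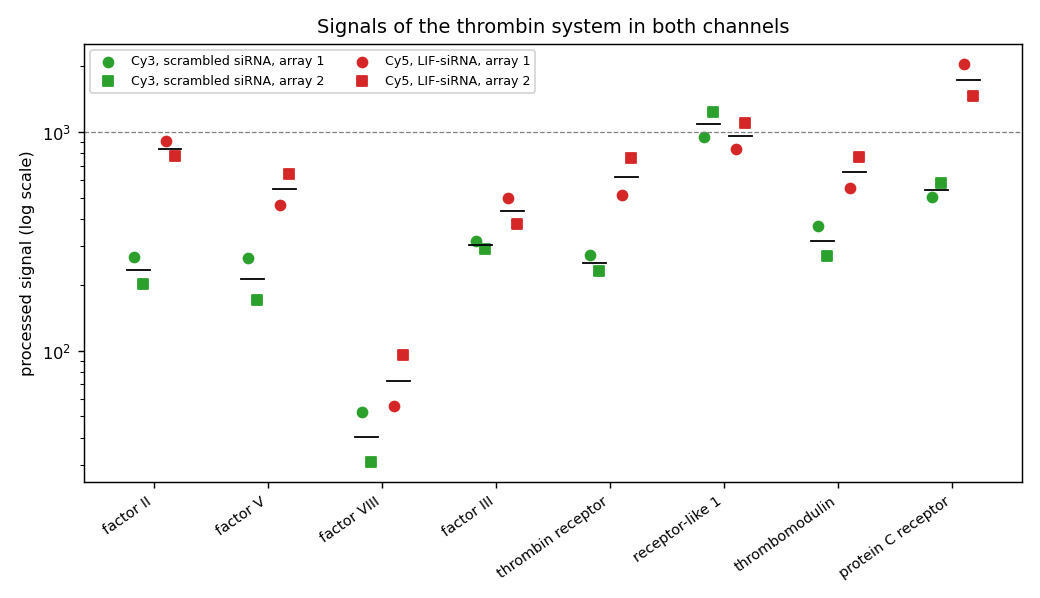
Processed signals (log axis, arbitrary units) of coagulation factors, thrombin receptors, thrombomodulin and the endothelial protein C receptor in the Cy3 (scrambled siRNA) and Cy5 (LIF-siRNA) channels, with circles for array 1, squares for array 2, lines at the geometric mean and the signal threshold of 1000 dashed. Factor II lies at 203 and 269 in Cy3 and at 777 and 904 in Cy5, while receptor-like 1 overlaps between the channels.

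Of the 3 plasminogen system spots, 0 had an unadjusted p under 0.05 in limma. Plasminogen had signals between 51 and 68 in all channels and a mean log2 ratio of 0.23 ± 0.12 (SD, n = 2, adjusted p = 0.495). Tissue plasminogen activator had 682 and 817 against 652 and 567, a mean of -0.29 ± 0.33 (SD, n = 2, adjusted p = 0.435). Urokinase, the activator used by invading trophoblast, had 500 and 379 against 216 and 463, and the arrays differed in sign (-1.21 and 0.29 on the log2 scale). The urokinase receptor, outside the rule, had a mean of 0.49 ± 0.29 (SD, n = 2, adjusted p = 0.221). Serpin B2, an inhibitor of urokinase, had 31.3 and 21.7 in the control channel and 65.5 and 76.3 after LIF-siRNA. Its control channel was not well above background on array 2, and no ratio is given.

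Of the 14 tested serpin spots, 7 were higher and 3 lower on both arrays, with a median of 0.23, which was 0.07 with normexp and loess and 0.09 for spots well above background in both channels. Heparin cofactor (clade D member 1), a thrombin inhibitor of plasma, had 517 and 550 against 626 and 842, a mean of 0.45 ± 0.24 (SD, n = 2). Alpha-2 antiplasmin (clade F member 2), the main inhibitor of plasmin, had 32.4 and 56.3 against 114 and 76.2. Its log2 ratios were 1.82 and 0.44. Its control signals were below the 95th percentile of the blank spots in that channel, 53.7 on array 1 and 67.9 on array 2. C1 inhibitor (clade G member 1), which blocks complement and contact proteases, had 206 and 201 against 107 and 120, a mean of -0.84 ± 0.14 (SD, n = 2, adjusted p = 0.0928). Serine protease inhibitor 6, which blocks granzyme B, had 106 and 139 against 57 and 77, a mean of -0.87 ± 0.04 (SD, n = 2, adjusted p = 0.0876). The serine protease inhibitors numbered 1-1 to 1-4 form a group of close relatives, as do 2-1 and 2-2, and their spots cannot be assigned to single genes with certainty. The 2 spots named serine protease inhibitor 1-4 gave 0.59 and 1.91 on the arrays for the spot with signals up to 1217, and the other had signals up to 38.1 with a control channel not well above background on array 1.

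The metalloproteases had a median log2 ratio of 0.10 over 25 tested spots, with 9 higher and 6 lower on both arrays. Matrix metalloproteinase 12, the macrophage elastase, had 156 and 267 in the control channel and 62 and 61 after LIF-siRNA. Its log2 ratio was -1.33 and -2.14, a mean of -1.73 ± 0.57 (SD, n = 2, adjusted p = 0.0607). With normexp and loess it was -0.93, above that of Kunitz type 1 at -1.37. The gelatinases MMP2 and MMP9, which cut basement membrane collagen, had means of 0.33 ± 0.19 and -0.23 ± 0.92 (SD, n = 2), and the membrane-bound MMP14, an activator of MMP2, had 0.20 ± 0.46. The arrays had opposite signs for 6 of the 8 MMP spots tested. The TIMP1 spot, named tissue inhibitor of metalloproteinase, had 162 and 147 against 266 and 302, a mean of 0.88 ± 0.23 (SD, n = 2, adjusted p = 0.0923). Of the 2 spots of TIMP3, the brighter had a mean of 0.28. The dimmer had 88.1 and 132 against 31.7 and 128. Its LIF-siRNA channel was not well above background on array 1, and no ratio is given.

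ADAM17, the sheddase that releases TGF alpha and other EGF receptor ligands, had signals of 4748 and 4450 in the control channel and 7119 and 6511 after LIF-siRNA. Its mean log2 ratio was 0.57 ± 0.02 (SD, n = 2) or 1.48-fold, with an adjusted p of 0.15. ADAM23, which is best known from neurons, had 342 and 234 against 502 and 779 and a mean of 1.14 ± 0.83 (SD, n = 2, adjusted p = 0.109). The ADAMs of sperm and of muscle fusion (ADAM 1a, 2 and 12) had means of 0.05, -0.26 and -0.37, and ADAM15 had -0.16. Of the 11 ADAM and ADAMTS spots tested, 4 were higher and 3 lower on both arrays.

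Some high ratios belonged to 3 spots whose control channel was not well above background on either array and they entered the test through the LIF-siRNA channel alone. No ratio is given for them, since it moved with the scaling and their control signals were below the 95th percentile of the blank spots in that channel, 53.7 on array 1 and 67.9 on array 2. Kallikrein 26, a serine protease of secretory glands, had 23.3 and 17.7 in the control channel and 70.1 and 74.6 after LIF-siRNA. ADAMTS1, a matrix protease of ovulation, had 23.1 and 15.9 in the control channel and 40.2 and 75.4 after LIF-siRNA. The Kazal type 3 inhibitor, a trypsin inhibitor of the pancreas, had 25.0 and 38.7 in the control channel and 41.1 and 58.2 after LIF-siRNA.

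The proprotein convertases, which cut growth factor precursors, held 2 spots near 0 and 2 below it. Type 3 (furin) had 2193 and 2472 against 2404 and 2050, a mean log2 ratio of -0.07 ± 0.28 (SD, n = 2). Type 2, known from endocrine cells, had -0.68 ± 0.15 (SD, n = 2, adjusted p = 0.117) at signals below 80, and -0.145 with normexp and loess. Type 7 was spotted as 2 clones of the same transcript cluster, and the clone with signals near 1000 gave 0.14 ± 0.01 while the dimmer clone, at 132 and 135 against 67.4 and 56.9, gave -1.11 ± 0.19 (SD, n = 2). Among 6 names with more than 1 spot, the means of a name's spots differed by 0.34 to 2.22. The smallest difference was that of granzyme F, whose spots belong to different transcript clusters. The largest was that of carboxypeptidase D, a membrane protease of the secretory pathway. The 3 spots of carboxypeptidase D had means of -0.62, 0.44 and 1.61, and the last belongs to another transcript cluster in the files. Protease serine 16, known from the thymus, had 86.5 and 122 against 52.0 and 55.1, a mean of -0.94 ± 0.29 (SD, n = 2, adjusted p = 0.0895). With normexp and loess the means of several dim spots were nearer 0, at -0.42 for cathepsin B, -0.42 for serine protease inhibitor 6, -0.49 for C1 inhibitor, -0.39 for protease serine 16, -0.52 for the dimmer type 7 clone, 0.40 for cathepsin M, 0.40 for alpha-2 antiplasmin and 0.85 for calpain 3. Secretory leukocyte protease inhibitor, known from mucosal fluids, had -0.14 and 0.52 on the arrays.

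**Figure D4:**
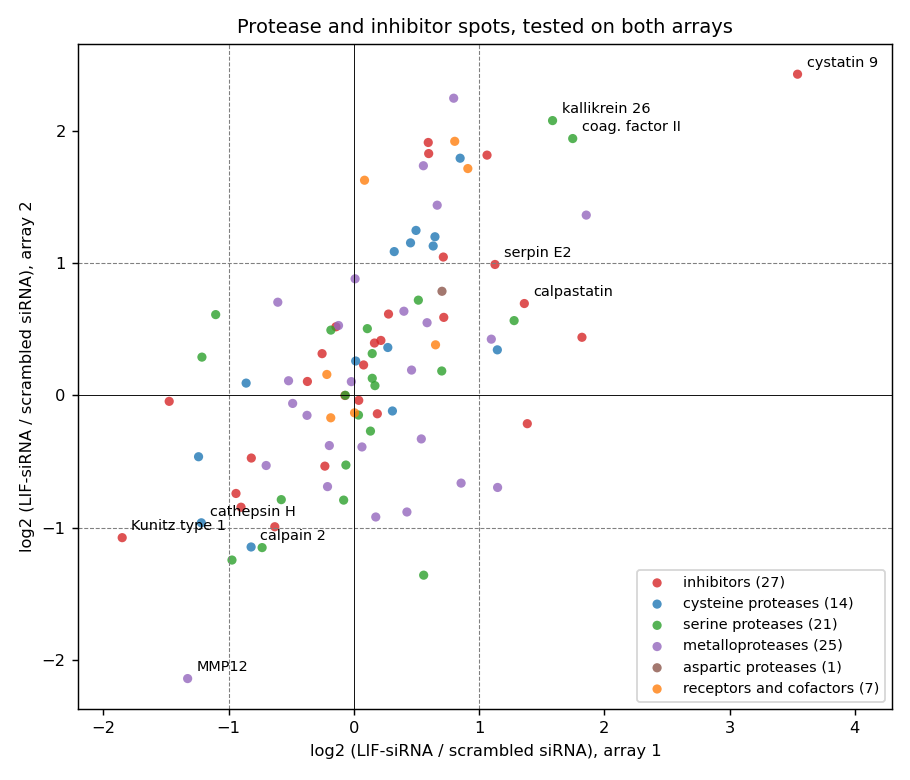
Log2 ratio of LIF-siRNA over scrambled siRNA on array 1 (x axis) against array 2 (y axis) for the 95 tested spots, coloured by protease class or inhibitor with the number of spots in brackets and with dashed lines at 2-fold. Cystatin 9 lies farthest from the origin at 3.54 and 2.43, and MMP12 and Kunitz type 1 lie at the lower left.

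Of the 84 members well above background in both channels, 3 had a ratio above 2 on both arrays (cystatin 9, coagulation factor II and a spot of carboxypeptidase D), against 2.32% of such probes. The control signals of the carboxypeptidase D spot were below the 95th percentile of the blank spots on both arrays, and its log2 ratio with normexp and loess was 0.61, under 2-fold. Over all 95 tested members, 2 had a ratio below 0.5 on both arrays, against 3.03% of all probes tested. These were Kunitz type 1 and MMP12. The median log2 ratio of the members was 0.14, beside -0.004 for all 8079 probes, and it was 0.07 with normexp and loess. By class, the median was 0.51 for 14 cysteine protease spots, 0.52 for 7 receptors and cofactors, 0.19 for 27 inhibitors, 0.10 for 25 metalloproteases and -0.03 for 21 serine proteases. With array 1 and array 2 taken alone the medians were 0.31 and 0.35 for cysteine proteases, 0.08 and 0.38 for receptors and cofactors, 0.16 and 0.32 for inhibitors, 0.17 and 0.10 for metalloproteases and 0.11 and 0.13 for serine proteases, where the sign turned. The ratios of the arrays had a Pearson r of 0.63 across the members, which share both arrays and are not independent replicates. It was 0.64 across all tested probes. Across the 21 members past the signal threshold r was 0.86, beside 0.76 across all probes past it. Members were dimmer than the array as a whole, with a median signal of 176 against 619 for all tested probes.

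**Figure D5:**
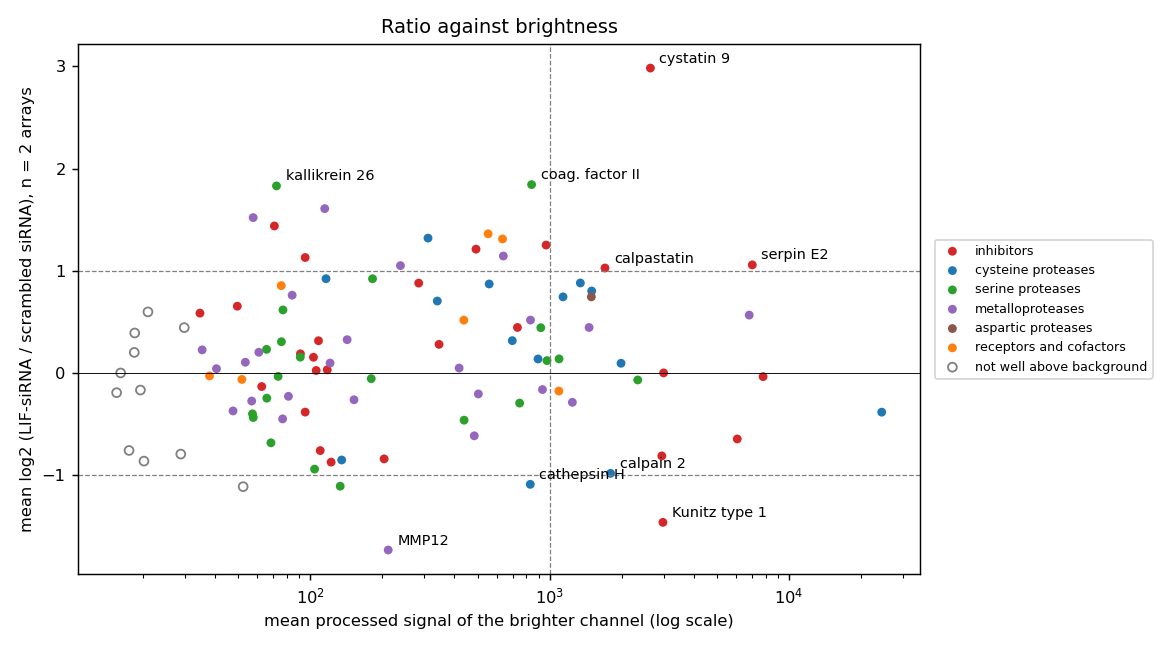
Mean log2 ratio over the 2 arrays (y axis) against the mean processed signal of the brighter channel (x axis, log scale) for all 106 spots, coloured by class, with open circles for the 11 spots not tested and dashed lines at 2-fold and at a signal of 1000. Beyond 2-fold and to the right of 1000 lie cystatin 9, serpin E2 and calpastatin above and Kunitz type 1 below.

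Of 19 other spots named for protease systems, 15 were tested, 6 of them higher and 4 lower on both arrays (36.7% and 36.8% of all probes), and 2 of the 5 past the signal threshold were past the upper ratio, against 5.33% of all such probes. Besides the protein C receptor this was tripeptidyl peptidase II, a cytosolic peptidase, with 3598 and 3479 in the control channel and 7437 and 6773 after LIF-siRNA and a mean of 1.00 ± 0.06 (SD, n = 2, adjusted p = 0.0756). It was at the limit, since its log2 ratio on array 2 was 0.96 and its mean with normexp and loess was 0.98, both under 2-fold. Of 8 caspase spots tested, the proteases of cell death, 2 were higher and 5 lower on both arrays, and 0 were past the criteria.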

How the data were processed

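Cy5-labeled cDNA of LIF-siRNA-treated and Cy3-labeled cDNA of scrambled-siRNA-treated morulae were compared on 2 arrays. The authors deposited Agilent Feature Extraction output, in which the intensity columns hold spot and background brightness and the processed signal, and the log10 ratio of Cy5 to Cy3 follows rank-consistent lowess per the file headers. Other deposited columns hold flags. The deposited log2 table holds the average brightness of both channels, not a ratio, and gave no value. The deposited p-values of the software were not used.

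The log ratio was converted to log2, and control spots and 23 outlier gene spots were left out. Probes that each array showed well above background in Cy3 or Cy5 were tested with limma 3.58.1 (intercept only, two-sided, Benjamini-Hochberg, threshold 0.05) in R 4.3.3, checked on simulated data. The criteria were ratio limits of 2 and 0.5 with a signal over 1000. Other steps used Python with pandas. Members, lists and tests were chosen with earlier results of these data known. Named members are those past the criteria, the 10 highest and 10 lowest ratios with the same sign on both arrays, and a list of well-known proteases and inhibitors. Further family members were named after their values had been seen. Partners were found by name, leaving out ESTs. The number of arrays limits the precision. Alternatives were other filters, normexp (offset 50), median centring, an intensity trend, the methods' t-test, averaged spots and each array alone.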

Additional observations from a re-analysis of the deposited data

How the results depend on the processing

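The 4 members past the criteria were the same after median centring and with outlier spots kept. Without the signal threshold the counts were 16 higher and 5 lower of 106 (6.55% and 5.13% of all probes), and with well above background in its place 16 and 4 of 95 (6.96% and 5.27%). These counts include spots whose control channel was not well above background. With the thresholds required on each array there was 1 higher (cystatin 9) and 1 lower (Kunitz type 1). With normexp, with or without loess, 2 were higher and 1 lower, calpastatin being the one lost. Without replicate 1 or without replicate 2 there were 4 higher and 2 lower, and without replicate 1 both calpastatin and serpin clade E member 2 were lost.

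The count of members called by limma was 0 as tested and was 4 for probes well above background in both channels, 8 for probes past the signal threshold, 5 with median centring, 18 with an intensity trend, 2 with normexp and loess and 27 with normexp and median centring without loess, an alternative chosen after seeing the data. Of all probes, the same settings called 3.09%, 18.7%, 4.27%, 14%, 1.83% and 20.9%, beside 4.76%, 38.1%, 5.26%, 18.9%, 2.11% and 28.4% of the members. The cause was not tested. It was 0 with no filter (38 at unadjusted p under 0.05), with outlier spots kept (41), with averaged spots (38) and by the methods' t-test (7). The median of the members was 0.0698 with normexp and loess, 0.0572 without loess, and 0.15 to 0.23 with 1 array left out.

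Of 22 members past the criteria or among the highest and lowest, 9 moved by more than 1 SD between the arrays with normexp and loess and 10 without loess, and 0 changed sign. These members agree in sign between the arrays, 20 of them by the rule that chose them, so leaving out an array could not turn them, and 19 of them passed the filter on both channels. Of 17 family medians, 3 changed sign without replicate 1, 2 without replicate 2, 3 with normexp without loess, 1 with normexp and loess and 1 with the filter on both channels. With 1 array there is no spread and no test. No paired analysis was possible because the group is a single set of ratios, each already taken within an array, and no slide block could be fitted for the same reason. Of the 95 members tested, 74 were below the signal threshold.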
